A study of Mus musculus with 27 samples.

Results

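The comparison described here is TGFβ1 against the TGFβ receptor inhibitor SB431542 (SB) in mouse embryonic fibroblasts (MEFs) that carried 5 cardiac transcription factors, with the DMSO vehicle placed between them. The members are the 3 arrays labelled MEF 5F TGFb and the 3 labelled MEF 5F SB, set beside the 3 labelled MEF 5F DMSO, 9 of the 27 arrays in the series. All 19938 genes with a single symbol were followed, each through its brightest probe set. Each array read the RNA of 1 culture at Day 3 after induction on an Affymetrix Mouse Gene 1.0 ST array. All 9 cultures received the doxycycline transactivator, a calcium reporter driven by the Troponin T promoter and 5 factors named HNGMT (Hand2, Nkx2.5, Gata4, Mef2c with Tbx5), by lentivirus, with 2 µg/mL doxycycline to switch the factors on. From Day -1 the HNGMT+TGFβ1 cultures had 2 ng/mL TGFβ1, the HNGMT+SB cultures 0.5 µM SB and the HNGMT+DMSO cultures the vehicle. The same 3 treatments of MEFs without the factors, which the labels describe both as empty vector and as no factor treatment, served as the nearest comparison. The MEFs came from mid-gestation embryos of mixed background after removal of the head and of the viscera, heart included, so a culture holds fibroblasts of many body regions and whatever other cells were left with them. The labels call the cultures of a group independent biological replicates.

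TGFβ1 binds a pair of receptor kinases at the cell surface, and the type I receptor phosphorylates Smad2 and Smad3, which enter the nucleus and act on target genes. SB blocks the kinase of the type I receptor and of its close relatives, the receptors of activin and nodal. In fibroblasts the pathway is known for matrix production, contractile gene expression and growth control, and serum and the cells themselves supply ligand, so a vehicle culture can hold some signal. TGFβ1 and SB therefore test the pathway from both sides, and the place of DMSO beside them shows how far each treatment lay from the vehicle at these doses.

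Differences are given as log2 intensity, TGFβ1 minus SB unless stated, so 1 unit is a doubling. A gene was called when its adjusted p in limma, taken over the whole set of 19938, was under 0.05 and the fold was 1.5 or more. The TGFβ1 step is TGFβ1 minus DMSO and the SB step is SB minus DMSO. A gene was graded when both steps passed an adjusted p under 0.05 at any fold and ran in opposite directions, and same-way when both passed and ran in the same direction. Both steps use the same DMSO cultures, so an error in DMSO moves them together, towards the same-way class and away from the graded class. Array medians ran from 7.83 to 7.91 in the 9 HNGMT arrays. Vim, the intermediate filament of mesenchymal cells, stood at 14.15 ± 0.01 with TGFβ1, 14.19 ± 0.01 with SB and 14.19 ± 0.02 with DMSO (SD, n = 3 each), close to the highest values on these arrays, 14.52 to 14.64. The summed intensity of 25 fibroblast markers ran from 16.70 to 16.72 (log2) with TGFβ1, from 16.96 to 16.99 with SB and from 17.04 to 17.08 with DMSO. Endothelial markers, 25 as well, summed to 12.43 to 12.52 with TGFβ1, 12.47 to 12.56 with SB and 12.48 to 12.53 with DMSO. An array intensity has no true zero, so no marker could be called absent.

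TGFβ1 left 617 genes higher than SB and 851 lower, which is 7.36% of all genes tested (3.09% higher and 4.27% lower). The TGFβ1 and SB cultures did not overlap for any of these 1468 genes, against 45.7% of all genes without overlap. Epyc, the cartilage proteoglycan epiphycan, had the largest decrease and Scgb1a1, the secretoglobin of airway club cells, the largest increase. Epyc was at 6.56, 6.65 and 6.64 with TGFβ1, 10.76, 10.85 and 10.92 with SB, and 10.67, 10.95 and 10.87 with DMSO. The SB and DMSO cultures overlapped and all 3 TGFβ1 cultures lay far below them. The difference was -4.23 ± 0.08 (standard error, adjusted p = 5.27e-16). Scgb1a1 was at 10.54, 10.63 and 10.54 with TGFβ1, 6.90, 7.06 and 6.76 with SB, and 7.55, 7.12 and 7.28 with DMSO. Its 3 TGFβ1 cultures lay above all others, and SB lay below DMSO without overlap. The difference was 3.66 ± 0.08 (standard error, adjusted p = 5.32e-15), with an SB step of -0.41.

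Genes far lower with TGFβ1 than with SB included Agtr2, the type 2 receptor of angiotensin II, with -4.19, and Ccn3, a matricellular protein of the CCN family, with -3.46. Slc14a1, a urea transporter, had -3.43, and Itih5, a chain that binds hyaluronan, had -3.38. Apod, a lipid carrier, Penk, the precursor of enkephalins, and Dlk1, a membrane protein known for holding back adipocyte differentiation, had -3.21, -3.04 and -2.83. Fgl2, a fibrinogen-like protein, was at 7.81, 8.36 and 8.03 with TGFβ1, 11.81, 11.92 and 11.67 with SB, and 10.79, 10.89 and 10.76 with DMSO. Its 3 groups were apart, with a difference of -3.73 ± 0.10 (standard error, adjusted p = 1.17e-14). Genes far higher with TGFβ1 included Prg4, which encodes the lubricating glycoprotein lubricin, with 3.17. Gzme and Mcpt2, proteases named for lymphocyte and mast cell granules, had 2.72 and 2.53. Serpinb1a, an inhibitor of neutrophil proteases, had 2.63, the collagenase Mmp13 2.34 and the chemokine Ccl17 2.31. Olr1, a scavenger receptor of oxidized lipoprotein, had 2.45, and F2rl2, a member of the thrombin receptor family, 2.50. The 15 largest differences in each direction had adjusted p between 3e-18 and 7.05e-08 (limma).

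**Figure D1:**
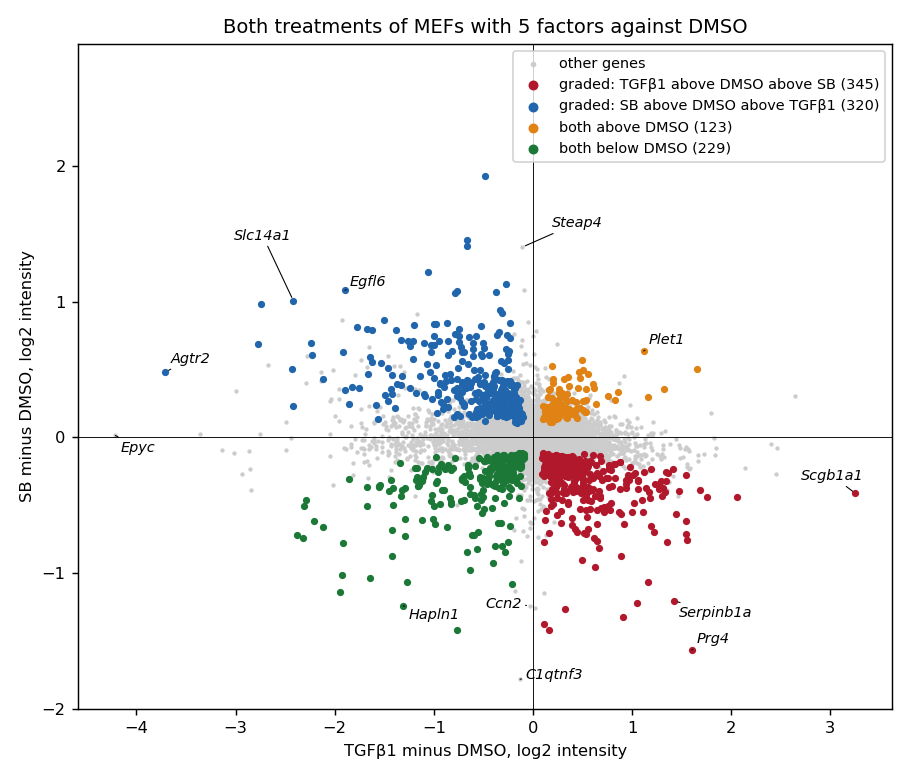
Each point is 1 of 19938 genes, with the TGFβ1 step (TGFβ1 minus DMSO) on the horizontal axis and the SB step (SB minus DMSO) on the vertical axis, both in log2 intensity, 3 cultures a group. Colours mark the 345 and 320 graded genes and the 123 and 229 same-way genes, and the spread of the cloud is wider along the TGFβ1 step than along the SB step.

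DMSO lay nearer to SB than to TGFβ1 for most of the called genes. On a scale where the TGFβ1 mean is 1 and the SB mean is 0, the DMSO mean had a median position of 0.159 among the 617 higher genes and of 0.105 among the 851 lower genes. DMSO was the nearer to SB for 548 of 617 (88.8%) and 778 of 851 (91.4%). The midpoint of TGFβ1 and SB was tested against DMSO. The test passed with DMSO nearer to SB for 455 of the higher genes and 640 of the lower ones, and with DMSO nearer to TGFβ1 for 36 and 23, where over all genes it passed for 20.5%. The median size of the TGFβ1 step was 0.68 among the higher genes and 0.86 among the lower genes, beside SB steps of 0.15 and 0.16. The doses of the ligand and of the inhibitor have no common scale, so the 2 steps compare these doses only.

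**Figure D2:**
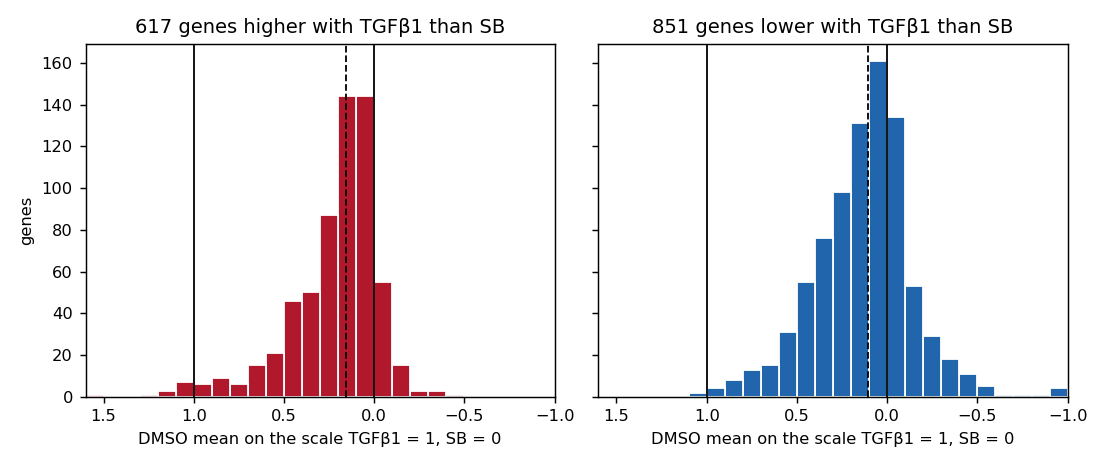
The histograms count called genes by where the DMSO mean falls on a scale with the TGFβ1 mean at 1 on the left and the SB mean at 0 on the right (solid lines), with values beyond the axis placed in the end bins. The dashed medians, 0.159 among the 617 higher genes and 0.105 among the 851 lower genes, lie close to SB.

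Split by the single steps, the 617 higher genes held 201 graded genes (32.6%), 389 for which the TGFβ1 step alone passed (63.0%), 22 for which the SB step alone passed and 5 with both steps on the same side of DMSO. The 851 lower genes held 233 graded genes (27.4%), 548 with the TGFβ1 step alone (64.4%), 19 with the SB step alone, 48 on the same side of DMSO and 3 with neither. Over all genes 345 were graded with TGFβ1 above DMSO above SB (1.73%) and 320 graded with SB above DMSO above TGFβ1 (1.6%). The same-way class held 123 genes above DMSO in both treatments (0.617%) and 229 below it (1.15%). The TGFβ1 step passed for 4290 genes upward and 2852 downward at any fold (21.5% and 14.3%), the SB step for 665 and 806 (3.34% and 4.04%). At 1.5-fold or more the TGFβ1 step passed for 444 and 706 genes (2.23% and 3.54%) and the SB step for 78 and 86 (0.391% and 0.431%). With each step at 25% or more the graded genes numbered 95 and 138 and the same-way genes 15 and 77. The same-way class above DMSO moved the most with single cultures, between 59 genes without HNGMT+SB replicate 1 and 198 without HNGMT+SB replicate 3.

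**Figure D3:**
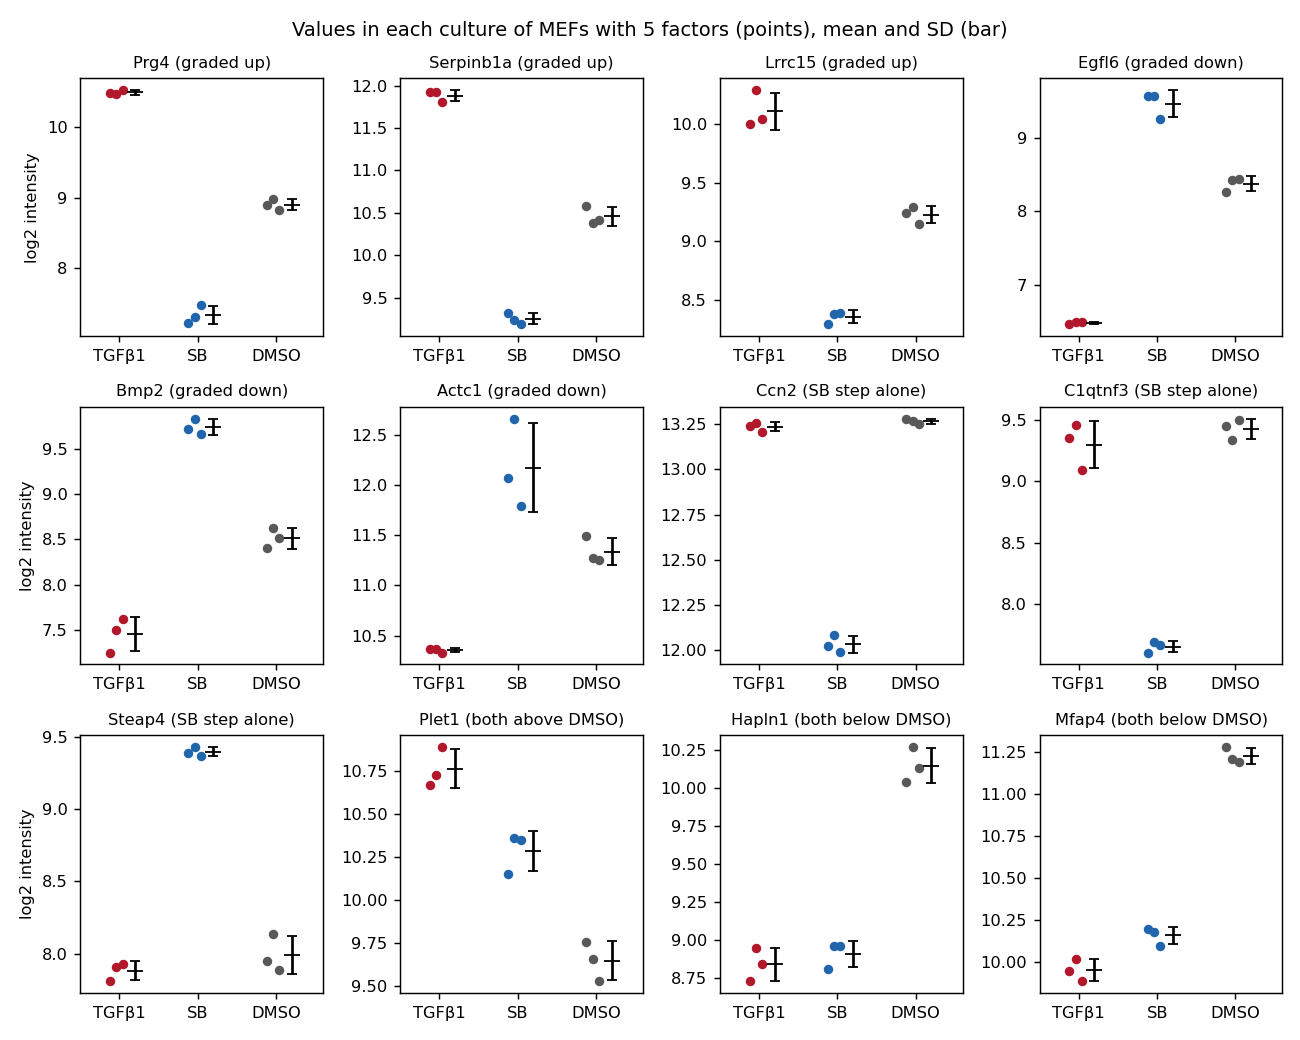
Each panel shows 1 gene, with log2 intensity on the vertical axis (the axis does not start at 0 and differs between panels), the 3 cultures as points and the mean with SD beside them, for TGFβ1, SB and DMSO. Graded genes have DMSO in the middle, Ccn2, C1qtnf3 and Steap4 have DMSO level with TGFβ1, and Plet1, Hapln1 and Mfap4 have both treatments on 1 side of DMSO.

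Prg4 was the clearest case of an upward grade, with both steps of about the same size. It was at 10.49, 10.47 and 10.53 with TGFβ1, 7.22, 7.30 and 7.48 with SB, and 8.89, 8.98 and 8.83 with DMSO, and the 3 groups did not overlap. The TGFβ1 step was 1.60 ± 0.09 (standard error, adjusted p = 2.16e-10) and the SB step -1.57 ± 0.09 (standard error, adjusted p = 4.76e-09). Serpinb1a followed with a TGFβ1 step of 1.43 and an SB step of -1.20. Fxyd6, a regulator of the sodium pump, had 1.16 and -1.07, and the adhesion protein Mpzl2 0.91 and -1.32. The platelet chemokine Ppbp had 1.05 and -1.22, and the 14-3-3 protein Sfn had 1.35 and -0.77. Lrrc15, a leucine-rich repeat protein of activated fibroblasts, was at 10.00, 10.29 and 10.04 with TGFβ1, 8.29, 8.38 and 8.39 with SB, and 9.24, 9.29 and 9.15 with DMSO. The 9 cultures fell into 3 separate groups for this gene too, with steps of 0.89 and -0.87.

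The 8 downward grades with the largest smaller step, SB above DMSO above TGFβ1, were Egfl6, Bmp2, Slc14a1, Fgl2, Olfml2a, Fxyd1, Ppargc1a and Actc1. Egfl6, an EGF-repeat protein of the matrix, was at 6.46, 6.49 and 6.49 with TGFβ1, 9.57, 9.57 and 9.25 with SB, and 8.26, 8.43 and 8.44 with DMSO. Its TGFβ1 step was -1.90 ± 0.08 (standard error, adjusted p = 5.66e-12) and its SB step 1.09 ± 0.08 (standard error, adjusted p = 7.39e-08). Bmp2, a ligand of the BMP branch that acts in early heart formation, was at 7.25, 7.50 and 7.62 with TGFβ1, 9.71, 9.83 and 9.66 with SB, and 8.40, 8.63 and 8.51 with DMSO. The groups did not overlap for either gene, and the 2 steps of Bmp2 were of about the same size, -1.06 and 1.22. Ppargc1a, the coactivator of mitochondrial biogenesis, had steps of -1.00 with TGFβ1 and 0.84 with SB. Olfml2a had -1.51 and 0.87, and Fxyd1, the pump regulator phospholemman, -0.87 and 0.84. Of 19 genes that the study listed as raised by SB in both cell types, 18 were lower with TGFβ1 than with SB and the same 18 were graded. Of 10 protein-coding genes that it listed as lowered by SB, 9 were higher and 7 graded, and the miRNA on that list was left out. The study chose both lists on these samples, so their SB step is no independent evidence of direction. Plet1 was the 1 exception in the first list, since TGFβ1 and SB both left it above DMSO.

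Both treatments moved some genes to the same side of DMSO, most of them downward. Hapln1, the link protein that ties aggrecan to hyaluronan, was at 8.73, 8.95 and 8.84 with TGFβ1, 8.81, 8.96 and 8.96 with SB, and 10.04, 10.27 and 10.13 with DMSO. TGFβ1 and SB overlapped and both lay below all DMSO cultures, with steps of -1.31 ± 0.06 (standard error, adjusted p = 2.36e-11) and -1.24 ± 0.06 (standard error, adjusted p = 6.71e-10). Mfap4, a microfibril protein, was at 9.95, 10.02 and 9.89 with TGFβ1, 10.20, 10.18 and 10.10 with SB, and 11.28, 11.21 and 11.19 with DMSO. Here too both treatments lay below DMSO, by steps of -1.27 and -1.06, and the difference between them was -0.21 (adjusted p = 0.00126). Entpd1, the ectonucleotidase CD39, had steps of -1.95 and -1.14, and the ETS factor Erg had -1.91 and -0.78. Nell2 had -1.65 and -1.03, and Omd, a keratan sulfate proteoglycan of bone, -1.43 and -0.87. Itgbl1 differed from these in that SB lay below TGFβ1, with steps of -0.76 and -1.42.

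The genes above DMSO in both treatments had smaller steps. Plet1, a surface protein first known from placenta, was at 10.67, 10.73 and 10.89 with TGFβ1, 10.15, 10.36 and 10.35 with SB, and 9.76, 9.66 and 9.53 with DMSO. All 3 groups were apart, with TGFβ1 the highest, and the steps were 1.12 ± 0.09 (standard error, adjusted p = 1.05e-08) and 0.64 ± 0.09 (standard error, adjusted p = 7.46e-05). The phospholipase Pla1a had steps of 1.65 and 0.51, and the matrix protease Mmp19 0.50 and 0.57. Muscle and metabolic genes stood among the 8 largest of this class. Smpx, a small protein of striated muscle, had 0.51 and 0.50, Gja5, the connexin of atrial and conduction cells, 0.46 and 0.48, and Pdk4, a brake on glucose oxidation, 0.60 and 0.39. For Smpx and Gja5 the TGFβ1 minus SB differences were 0.01 and -0.02 (adjusted p = 0.923 and 0.868). Pla1a and Plet1 differed by 1.14 and 0.48 (adjusted p = 3.76e-11 and 0.000189), and Cox7a1, a muscle subunit of cytochrome oxidase, had 0.04.

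For a few genes SB alone moved the level and TGFβ1 added nothing that passed the test. Ccn2, a matricellular growth factor and a standard target of TGFβ, was at 13.24, 13.26 and 13.21 with TGFβ1, 12.02, 12.08 and 11.99 with SB, and 13.28, 13.27 and 13.25 with DMSO. The TGFβ1 and DMSO cultures overlapped and SB lay below both. The SB step was -1.24 ± 0.04 (standard error, adjusted p = 1.86e-11) and the TGFβ1 step -0.03 (adjusted p = 0.689). Ccn2 lies among the brighter genes, and whether its signal could still rise was not tested. C1qtnf3, a secreted C1q family protein, was at 9.35, 9.46 and 9.09 with TGFβ1, 7.60, 7.69 and 7.66 with SB, and 9.45, 9.34 and 9.50 with DMSO, with an SB step of -1.78. The heparan sulfate editing enzyme Sulf1, the gap junction gene Gjb2 and the inhibitor Pmepa1 had SB steps of -1.14, -1.26 and -0.73 and TGFβ1 steps of 0.12, 0.02 and 0.05. In the other direction Steap4, a metalloreductase, was at 7.81, 7.91 and 7.93 with TGFβ1, 9.39, 9.43 and 9.37 with SB, and 7.95, 8.14 and 7.89 with DMSO. Its SB step was 1.40 ± 0.09 (standard error, adjusted p = 1.1e-08), and TGFβ1 and DMSO overlapped. Sparcl1, a relative of the matrix protein SPARC, had an SB step of 1.09, the protease inhibitor Timp4 0.85 and the copper carrier gene Cp 0.75.

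The counts of called genes in the lists that follow stand against 3.09% called higher and 4.27% called lower over all genes, 7.36% in sum. Cell division genes were lower with TGFβ1 as a group. Of 38 measured genes of mitosis and DNA replication, 34 fell below SB with TGFβ1, none rose (limma, 0 also at an unadjusted p under 0.05) and 4 did not pass both thresholds, beside 7.36% called over all genes. Their median difference was -1.10, against 0.01 over all genes. The TGFβ1 step passed downward for all 38 and the SB step for none (limma), with 2 of the 38 above DMSO in SB at an unadjusted p under 0.05. Downward steps passed for 14.3% of all genes with TGFβ1 and 4.04% with SB. The median steps were -1.20 and -0.03. Mki67, the proliferation antigen Ki-67, was at 9.67, 9.89 and 9.78 with TGFβ1, 11.45, 11.49 and 11.52 with SB, and 11.38, 11.60 and 11.54 with DMSO. The SB and DMSO cultures overlapped and all TGFβ1 cultures lay below them. The difference from SB was -1.70 ± 0.06 (standard error, adjusted p = 1.23e-13). The spindle motor Kif11 had -1.83, the checkpoint kinase Bub1b -1.78, the cyclin Ccnb2 -1.60 and the helicase subunit Mcm6 -1.32. The list mean per culture was 9.15, 9.30 and 9.28 with TGFβ1, 10.33, 10.38 and 10.34 with SB, and 10.30, 10.42 and 10.40 with DMSO. Leaving out any 1 of the 9 cultures left 33 or 34 of the 38 called. An array of bulk RNA cannot tell apart fewer dividing cells from less of these transcripts in each cell.

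Promoters of this list are shown because its genes moved together. RefSeq promoter windows (GRCm38.p6, 250 bases before to 50 after the first start site listed for a gene) were on hand for 15614 of the genes and for 29 of this list. TTTGAA, the core of the cell cycle homology region, was found on either strand in 13 of 29 (44.8%), against 15.2% of all windows. CCAAT, the box bound by NF-Y, was found in 22 of 29 (75.9%), against 38.2%. TTTCGCGC or TTTGGCGC, the core of an E2F site, was found in 6 of 29 (20.7%), against 1.2%. Among all 645 called lower genes with a window these shares were 23.6%, 43.6% and 3.6%, and among 434 called higher genes 9.9%, 28.8% and 0.5%. The motifs were chosen after the values were seen, and a match is a description of the letters, not a site shown to be bound. Of 26 called lower members of the list that were examined, 6 held both TTTGAA and CCAAT before the start site. Kif11, Mki67 and Ccnb2 had the shortest stretches of these 6, so they are not typical of the list. Their stretches follow, with the matches to TTTGAA and CCAAT, on either strand, in capitals.
Kif11, chr19:37376322-37376381, plus strand: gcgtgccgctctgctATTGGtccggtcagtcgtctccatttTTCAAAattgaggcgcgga
Mki67, chr7:135716457-135716582, minus strand: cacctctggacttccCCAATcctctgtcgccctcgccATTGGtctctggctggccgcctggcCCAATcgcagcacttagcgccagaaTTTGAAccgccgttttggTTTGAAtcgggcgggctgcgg
Ccnb2, chr9:70421556-70421736, minus strand: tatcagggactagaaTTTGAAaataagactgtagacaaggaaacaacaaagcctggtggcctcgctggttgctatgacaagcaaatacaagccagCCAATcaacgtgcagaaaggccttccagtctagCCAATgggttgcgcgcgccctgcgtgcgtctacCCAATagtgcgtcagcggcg

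Interferon-induced genes, which antiviral signaling switches on, were also lower with TGFβ1 as a group. Of 34 measured, 27 fell below SB with TGFβ1, none rose (limma, 0 also at an unadjusted p under 0.05) and 7 did not pass both thresholds, where 7.36% of all genes were called. The median difference was -1.25, with a median TGFβ1 step of -1.02 and a median SB step of 0.27. Slfn5, Sp100, Oas2 and Psmb9 passed both steps and were graded, and for the other members the SB step did not pass. Rsad2, the antiviral enzyme viperin, was at 8.20, 8.17 and 7.40 with TGFβ1, 10.72, 10.63 and 10.80 with SB, and 9.72, 9.92 and 9.92 with DMSO. The TGFβ1 cultures lay below the others, and the difference from SB was -2.79 ± 0.28 (standard error, adjusted p = 2.96e-07). The 2'-5' oligoadenylate synthetase gene Oas2 was at 7.64, 7.59 and 7.34 with TGFβ1, 9.66, 9.63 and 9.65 with SB, and 9.31, 9.23 and 9.30 with DMSO, a difference of -2.12 ± 0.09 (standard error, adjusted p = 4.16e-12). Ifit3 had -2.31, the guanylate-binding protein Gbp3 -2.25 and the factor Irf7 -1.63. The list mean was 9.05, 9.51 and 8.82 with TGFβ1, 10.44, 10.47 and 10.46 with SB, and 10.20, 10.14 and 10.16 with DMSO. The TGFβ1 cultures were spread the widest, with replicate 2 the highest, and leaving out any 1 of the 9 cultures left 26 of the 34 called. The lentiviral transduction was shared by all 9 cultures, and its part in the level of these genes was not tested.

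Interferon promoters with a match to 1 motif are shown because fewer of the other promoters hold it. TTTCNNTTTC, the core of the interferon-stimulated response element, was found on either strand in 13 of the 28 windows of this list (46.4%) and in 3.3% of all windows. It was found in 7.4% of the called lower windows and 2.1% of the called higher ones. Rsad2, Slfn5, Ifit3, Gbp3, Ifit1 and Trim30a had the largest decreases among the called members with a match before the start site. The matched letters are in capitals.
Rsad2, chr12:26456548-26456587, minus strand: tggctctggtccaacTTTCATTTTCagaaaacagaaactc
Slfn5, chr11:82951932-82951971, plus strand: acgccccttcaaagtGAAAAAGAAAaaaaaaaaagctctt
Ifit3, chr19:34583358-34583431, plus strand: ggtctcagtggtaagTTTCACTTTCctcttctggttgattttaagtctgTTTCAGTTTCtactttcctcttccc
Gbp3, chr3:142559984-142560029, plus strand: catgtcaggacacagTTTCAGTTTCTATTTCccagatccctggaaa
Ifit1, chr19:34640770-34640828, plus strand: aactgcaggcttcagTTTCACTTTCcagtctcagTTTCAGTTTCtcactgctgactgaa
Trim30a, chr7:104465205-104465244, minus strand: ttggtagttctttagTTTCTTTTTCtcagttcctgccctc
In Ifit3 and Ifit1 the motif occurs more than once in the same stretch, and in Gbp3 the copies overlap. The TGFβ1 minus SB differences of Slfn5, Ifit1 and Trim30a were -2.42, -2.24 and -2.20.

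**Figure D4:**
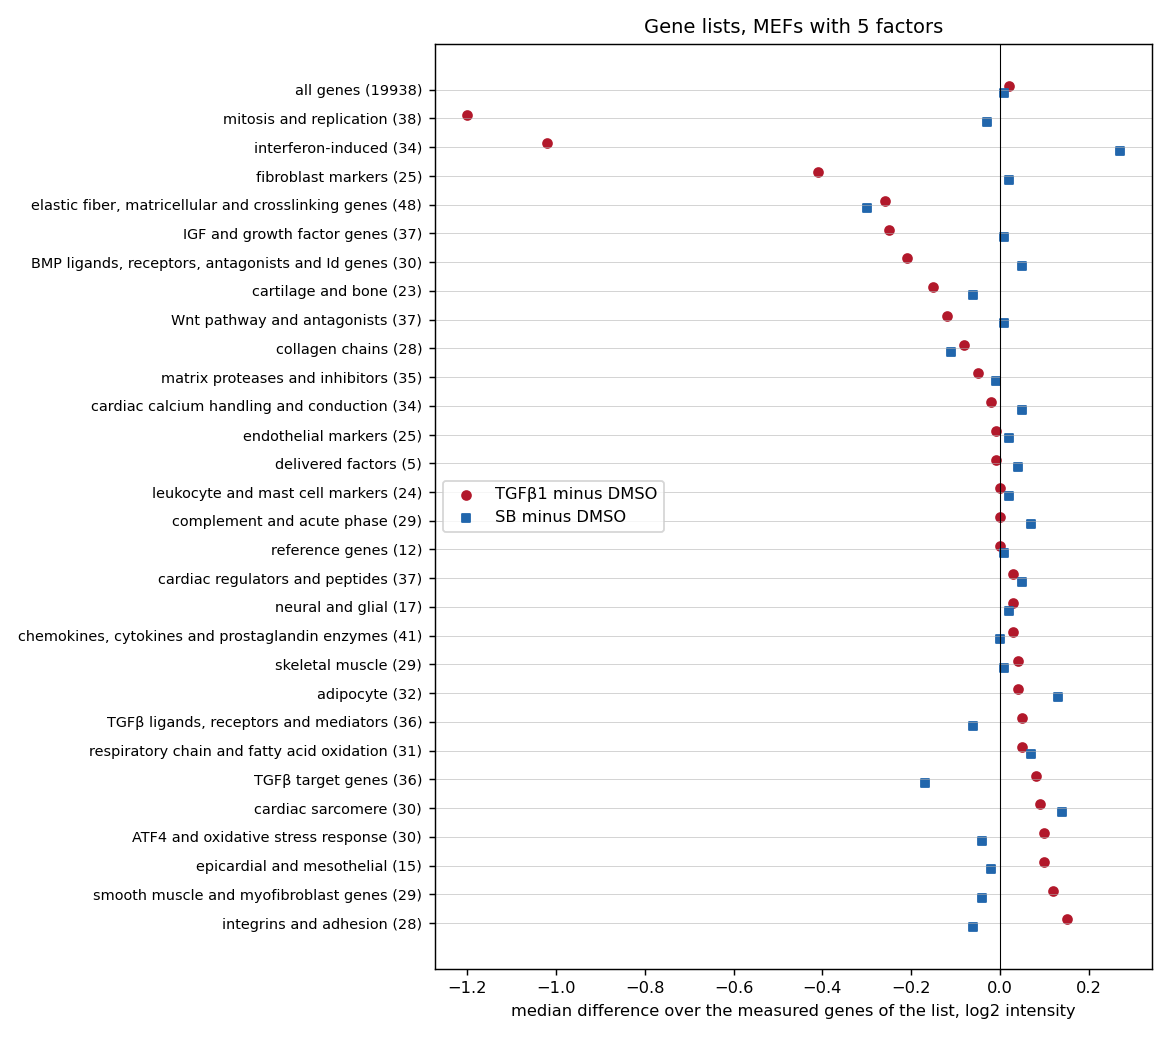
Circles give the median TGFβ1 step and squares the median SB step over the measured genes of each list, in log2 intensity, with the number of genes in brackets and all 19938 genes in the top row. The lists of mitosis and replication and of interferon-induced genes lie at -1.20 and -1.02 for the TGFβ1 step, and the list of elastic fiber, matricellular and crosslinking genes lies below 0 for both steps.

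Among target genes of TGFβ, more were above SB than below it with TGFβ1, and the SB step ran downward in nearly every target where it passed. Of 36 targets, 8 were called higher with TGFβ1 and 3 lower, and at any fold 21 were higher and 7 lower, beside 22.0% and 16.5% of all genes. At any fold the TGFβ1 step passed upward for 13 and downward for 8, beside 21.5% and 14.3% of all genes. The SB step passed upward for 1 and downward for 21, beside 3.34% and 4.04%. Of the 36, 10 were graded upward, beside 1.73% of all genes. At 1.5-fold or more the TGFβ1 step passed upward for 0 and downward for 6, beside 2.23% and 3.54% of all genes. The SB step passed upward for 0 and downward for 5 at that fold, beside 0.391% and 0.431% of all genes. Ltbp2 encodes an elastic fiber protein named for the latent TGFβ binding family. It was at 11.21, 11.19 and 11.18 with TGFβ1, 9.76, 9.70 and 9.64 with SB, and 11.09, 11.08 and 11.07 with DMSO. SB lay far below both other groups, with an SB step of -1.38 ± 0.04 (standard error, adjusted p = 2.76e-13) and a TGFβ1 step of 0.12 ± 0.04 (standard error, adjusted p = 0.0184). Lox, which crosslinks collagen and elastin, had steps of 0.12 with TGFβ1 and -0.77 with SB, and the oxidase Nox4 had 0.17 and -0.71. Among the inhibitors that the pathway induces against itself, Smad7 differed by 0.85 ± 0.04 (standard error, adjusted p = 2.5e-11), Skil 0.82 and Pmepa1 0.78. The ligand genes Inhba, a subunit of activin, and Tgfb1 were graded upward, with differences of 1.10 and 0.59.

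Tgfbr3, the co-receptor betaglycan, ran the other way. It was at 9.49, 9.66 and 9.70 with TGFβ1, 11.60, 11.59 and 11.58 with SB, and 10.77, 10.97 and 10.91 with DMSO. The 3 groups did not overlap, and the difference was -1.98 ± 0.06 (standard error, adjusted p = 1.08e-13). Of the other called members of the 36 pathway genes that were lower with TGFβ1, Dcn, a proteoglycan that binds the ligand, had -1.70 and Fst, which traps activin, -0.83. The receptor Tgfbr2 and Smad3 had smaller differences of -0.46 and -0.37, under the fold threshold. The targets called lower were Adamts1, Id1 and Snai2, with -1.71, -1.16 and -0.98. CAGACA, the longer form of the Smad box, was found in 5 of 20 promoter windows of the target list (25%), against 18% of all windows and 21.4% of those called higher.

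More genes of the BMP branch were lower with TGFβ1 than higher. Of 30 measured ligands, receptors, antagonists and Id genes, 10 were called lower and 1 higher, beside 4.27% and 3.09% of all genes, with a median difference of -0.19. Id1, Id2 and Id3, standard targets of BMP signaling that hold back differentiation factors, had -1.16, -1.79 and -1.19. Id2 was at 10.22, 10.40 and 10.34 with TGFβ1, 12.12, 12.14 and 12.07 with SB, and 11.81, 11.77 and 11.67 with DMSO, with the 3 groups apart. The antagonists Grem1 and Sostdc1 had -1.35 and -1.60 and TGFβ1 steps of -1.25 and -1.66, while their SB steps did not pass. Bmper, which binds BMP ligands, was the 1 called higher, with 0.82. Of 37 genes of the Wnt pathway, 8 were called lower and 2 higher. Rspo2, a Wnt agonist, and Lgr5, a receptor of R-spondins, had -2.66 and -2.40, and the receptor Fzd4 -2.19. Without TGFβ1 replicate 2 or without SB replicate 3, 1 was called higher. The Wnt antagonists Sfrp2 and Sfrp1 ran in opposite directions, with -2.23 and 0.59.

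Matrix genes were called in both directions. Of 28 collagen chains, 3 were called higher with TGFβ1 (Col10a1 with 1.63, Col11a1 with 0.61 and Col5a2 with 0.59) and 5 lower (Col14a1, Col3a1, Col6a3, Col18a1 and Col6a2, between -1.55 and -0.65). The TGFβ1 steps of Col5a2 and Col11a1 were -0.03 and -0.02, so their difference lay in the SB step. Against DMSO more chains fell than rose in both treatments. At any fold the TGFβ1 step passed upward for 3 of the 28 and downward for 11, beside 21.5% and 14.3% of all genes. The SB step passed upward for 1 and downward for 13, beside 3.34% and 4.04%. Below DMSO in both treatments were 5 chains, where 1.15% of all genes were. Col3a1, the fibrillar collagen of soft tissues, was at 11.47, 11.54 and 11.54 with TGFβ1, 12.37, 12.39 and 12.26 with SB, and 12.47, 12.54 and 12.46 with DMSO, a difference of -0.83 ± 0.04 (standard error, adjusted p = 2.77e-11). TGFβ1 lay below both other groups, and the SB step of -0.15 also passed.

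Of 48 measured genes of elastic fibers, matricellular proteins and crosslinking enzymes, 10 were called higher with TGFβ1 and 13 lower. In this list 14 were below DMSO in both treatments, where 1.15% of all genes were, and 10 were graded upward, where 1.73% were. Eln, which encodes elastin, was at 8.45, 8.41 and 8.28 with TGFβ1, 10.00, 10.07 and 9.80 with SB, and 10.70, 10.72 and 10.67 with DMSO. All 3 groups were apart, with DMSO the highest, and the steps were -2.32 ± 0.07 (standard error, adjusted p = 1.17e-13) and -0.74 ± 0.07 (standard error, adjusted p = 1.3e-06). The fibrillin Fbn2 had steps of -1.34 and -0.44, the fibulin Fbln5 -0.93 and -0.49, and Comp, a thrombospondin of cartilage and tendon, -2.31 and -0.50. The microfibril protein Mfap5 and Fbln2, another fibulin, were not in that class, with steps of -0.09 and -0.58 for Mfap5 and 0.41 and -0.33 for Fbln2. Among the enzymes of crosslinking, Loxl4, Plod2, Lox and Loxl3 were called higher and graded, with differences of 1.31, 0.98, 0.89 and 0.63. Loxl1 and Plod1 had -0.45 and 0.49, under the fold threshold. The list mean was 11.20, 11.26 and 11.23 with TGFβ1, 11.35, 11.36 and 11.32 with SB, and 11.67, 11.70 and 11.65 with DMSO.

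Of 28 integrins and adhesion proteins, 11 were higher with TGFβ1 and 3 lower. Itga11, a collagen receptor of fibroblasts, and Itga2, another collagen receptor, had 1.10 and 1.21, and Itgb5, which binds vitronectin, 1.04. Cdh11, the cadherin of mesenchymal cells, was lower, with -0.72, and Cdh1, the epithelial cadherin, was higher with 0.71. Of 35 proteases and inhibitors, 6 were higher and 6 lower. Mmp13 was at 11.90, 11.95 and 11.96 with TGFβ1, 9.51, 9.53 and 9.75 with SB, and 9.08, 9.46 and 9.34 with DMSO. Its TGFβ1 cultures lay above all others, with a TGFβ1 step of 2.64 ± 0.12 (standard error, adjusted p = 9.26e-12), and the SB step of 0.30 did not pass (adjusted p = 0.157). The gelatinase Mmp9 and the urokinase receptor Plaur had 1.84 and 1.55, and the aggrecanase Adamts5 -1.14.

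Of 25 fibroblast markers, 10 were called lower with TGFβ1 and 1 higher (Fbln2, with 0.74), with a median difference of -0.39 and a median SB step of 0.02. At any fold the SB step passed downward for 8 of the 25 and upward for 2, beside 4.04% and 3.34% of all genes. Cd34, a surface marker of quiescent connective tissue cells, was at 9.16, 9.33 and 9.19 with TGFβ1, 11.66, 11.70 and 11.62 with SB, and 11.65, 11.66 and 11.68 with DMSO. SB and DMSO overlapped and TGFβ1 lay below both. The difference from SB was -2.44 ± 0.09 (standard error, adjusted p = 7.15e-13). The proteoglycan Lum had -2.07, Dpt, a small matrix protein of skin, -1.76, the homeobox factor Prrx1 -0.92 and the PDGF receptor gene Pdgfra -0.84. S100a4, also known as fibroblast-specific protein, was at 10.92, 10.85 and 10.91 with TGFβ1, 11.65, 11.54 and 11.59 with SB, and 11.46, 11.34 and 11.45 with DMSO. TGFβ1 lay below the other groups, with a difference of -0.70 ± 0.10 (standard error, adjusted p = 1.13e-05). Vim differed by -0.03 (adjusted p = 0.427), near the top of the arrays' range. Of 15 markers of mesothelial and epicardial cells, 5 were called higher and 1 lower. The median difference was 0.28 and the median TGFβ1 step 0.10. At any fold the TGFβ1 step passed upward for 6 of the 15 and downward for 3, beside 21.5% and 14.3% of all genes. The keratins Krt18 and Krt8 had 1.73 and 1.56, and Upk3b and Bnc1, named for mesothelium, 0.80 and 0.78. The summed intensity of that list ran from 13.44 to 13.58 with TGFβ1, 12.86 to 12.89 with SB and 13.08 to 13.09 with DMSO. The part of cell mixture in these differences was not tested.

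Of 29 contractile genes of smooth muscle and myofibroblasts, 5 were higher with TGFβ1 and 3 lower. The smooth muscle myosin Myh11 had 0.91, calponin (Cnn1) 0.79, desmin (Des) 0.67, the channel subunit Kcnmb1 0.77 and Pdlim3 1.48. Tagln, the actin-binding protein SM22, had 0.52, under the fold threshold, with a TGFβ1 step of 0.09 and an SB step of -0.43. Myocd, the coactivator of smooth and cardiac muscle genes, was at 9.50, 9.57 and 9.59 with TGFβ1, 10.92, 10.94 and 10.98 with SB, and 10.25, 10.34 and 10.24 with DMSO. It was graded downward without overlap, a difference of -1.39 ± 0.07 (standard error, adjusted p = 2.1e-11). Mylk, the kinase of myosin light chain, had -1.24 with an SB step of 0.09.

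Cardiac genes went both ways between TGFβ1 and SB. Of 30 sarcomere genes, 6 were called higher with TGFβ1 and 4 lower. Against DMSO the SB step passed at any fold upward for 7 of the 30 and downward for 0 (limma, 1 at an unadjusted p under 0.05). The TGFβ1 step passed upward for 12 and downward for 4. Over all genes the shares were 3.34% and 4.04% for the SB step and 21.5% and 14.3% for the TGFβ1 step. Actc1, cardiac alpha-actin, was at 10.37, 10.37 and 10.33 with TGFβ1, 12.07, 12.66 and 11.79 with SB, and 11.49, 11.27 and 11.25 with DMSO. The groups did not overlap, SB replicate 2 stood above the other SB cultures, and the difference was -1.82 ± 0.15 (standard error, adjusted p = 2.83e-08). Tnni3, the troponin I of adult heart, was at 9.91, 10.18 and 10.14 with TGFβ1, 11.53, 11.67 and 11.39 with SB, and 10.88, 10.82 and 10.77 with DMSO, a difference of -1.45 ± 0.08 (standard error, adjusted p = 1.59e-10). Myl7, the atrial light chain, had -1.21, and Myh6, the alpha myosin heavy chain, -0.79. Actc1, Tnni3 and Myl7 were graded, with SB steps of 0.84, 0.71 and 0.60, and for Myh6 the SB step of 0.67 alone passed. None of the 6 higher genes had an SB step that passed (limma), with values between -0.18 and 0.24. Xirp1, an actin-binding protein of the intercalated disc, was at 9.20, 9.41 and 9.25 with TGFβ1, 8.18, 8.01 and 7.86 with SB, and 8.36, 8.03 and 8.05 with DMSO. TGFβ1 lay above both other groups, which overlapped, with a difference of 1.27 ± 0.10 (standard error, adjusted p = 1.23e-08). Tnni1, the troponin I of embryonic heart and slow muscle, had 0.90, titin (Ttn) 0.92, the atrial and embryonic light chain Myl4 0.74, the slow and cardiac troponin C Tnnc1 0.67 and Nebl 0.61. Without SB replicate 2 the calls were 8 higher and 3 lower, and without SB replicate 1 they were 5 and 6. Tnnt2, whose promoter drives the reporter, stood at 14.09 ± 0.02 with TGFβ1, 14.02 ± 0.03 with SB and 13.93 ± 0.04 with DMSO (SD, n = 3 each), near the top of the range.

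Pln encodes phospholamban, a brake on the calcium pump of the sarcoplasmic reticulum. It was at 6.95, 7.29 and 6.99 with TGFβ1, 9.05, 9.36 and 9.19 with SB, and 7.71, 7.73 and 7.79 with DMSO. It was graded without overlap, with a TGFβ1 step of -0.67 ± 0.10 (standard error, adjusted p = 2.73e-05) beside the difference from SB of -2.12. The pacemaker channel Hcn4 had -1.25, the calcium release channel Ryr2 -0.74 and the calcium channel subunit Cacna1g -0.75. These were the 4 of 34 calcium handling and conduction genes called lower, and Fkbp1b, a partner of the release channel, was the 1 called higher, with 1.24. Of 37 cardiac regulators and peptides, 5 were lower (Bmp2, Tgfbr3, Ppargc1a, Myocd and Hopx) and 3 higher. At any fold the SB step passed upward for 9 of the 37 and downward for 0 (limma, 0 also at an unadjusted p under 0.05). For the 34 calcium handling and conduction genes it passed upward for 6 and downward for 3. The TGFβ1 step passed for 14 and 8 of the 37 and for 8 and 12 of the 34. Nppb, the natriuretic peptide gene of the stressed ventricle, was at 11.72, 11.67 and 11.84 with TGFβ1, 10.71, 10.80 and 10.82 with SB, and 10.45, 10.39 and 10.45 with DMSO. TGFβ1 was the highest and DMSO the lowest, so it belonged to the same-way class, with steps of 1.32 and 0.35. The methyltransferase Smyd1 had 0.89 and Popdc3 1.14.

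Among the delivered factors, Tbx5 was called lower with TGFβ1, with -0.72 ± 0.07 (standard error, adjusted p = 3.29e-07), and Mef2c had -0.43, under the fold threshold. Hand2, Gata4 and Nkx2-5 had 0.09, 0.08 and -0.06 (adjusted p = 0.247, 0.634 and 0.759). The study's methods give human PCR assays for some of the delivered genes, and how well mouse probe sets read those was not tested. Of 29 skeletal muscle genes 10.3% were called, beside 7.36% of all genes. They were the 3 higher genes Ryr1 with 0.88, Des with 0.67 and Mybph with 0.63, and 2 were called without TGFβ1 replicate 2 or without SB replicate 3.

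Of 37 secreted growth factors, their receptors and binding proteins, 12 were called lower with TGFβ1 and 4 higher. Of these 37, 10 were graded downward, beside 1.6% of all genes. Angpt2, a ligand of the receptor Tie2, was at 7.57, 7.30 and 7.31 with TGFβ1, 9.45, 9.46 and 9.50 with SB, and 7.90, 8.17 and 8.10 with DMSO. The groups did not overlap, and the difference was -2.07 ± 0.07 (standard error, adjusted p = 1.26e-13). Fgf7 and Fgf10, growth factors that act on epithelia, had -1.82 and -1.72, Igfbp5, which binds IGF, -1.97 and the angiotensin receptor Agtr1a -1.85. The genes called higher were Pdgfb, Angpt4, Vegfa and Pdgfc, with 1.81, 1.02, 0.71 and 0.61. Of 41 chemokines, cytokines and prostaglandin enzymes, 8 were higher and 6 lower. Ptgs2, the inducible cyclooxygenase, was at 12.38, 12.42 and 12.40 with TGFβ1, 10.84, 10.77 and 10.81 with SB, and 12.04, 12.06 and 12.12 with DMSO. It was graded, and most of the difference of 1.60 lay in the SB step of -1.27. Ccl2, Il1a and Il6 had 1.62, 1.83 and 1.51, and the lower genes Tslp, Ccl5 and Cxcl12 -2.61, -1.92 and -1.01. Of 29 complement and acute phase genes, 6 were lower, led by C1s1 with -2.59 and Serping1, the inhibitor of the first complement component, with -2.48, and 2 were higher, 1 of them without TGFβ1 replicate 1.

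Adipocyte genes were called in both directions, 3 higher and 5 lower of 32. Pparg, the master factor of fat cells, was at 9.23, 9.31 and 9.26 with TGFβ1, 10.87, 10.82 and 10.92 with SB, and 10.29, 10.39 and 10.32 with DMSO. It was graded downward without overlap, with a difference of -1.61 ± 0.04 (standard error, adjusted p = 2.59e-14). Lpl and Fabp4 had -1.68 and -1.35. Dgat2, which makes triglyceride, and Plin2, which coats lipid droplets, were higher with 1.56 and 0.82. Of 31 genes of the respiratory chain and fatty acid oxidation, Cox8b alone was called, with -0.85, and of 12 reference genes none was called (limma). At any fold 1 reference gene was higher and 1 lower at an adjusted p under 0.05, and 4 passed an unadjusted p of 0.05, 2 in each direction.

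Of 296 measured miRNA genes, 4 were called higher with TGFβ1 and 2 lower, 2.03% in sum beside 7.36% of all genes. The probe sets read the locus, so the precursor and not the mature miRNA, and these genes were singled out after their values were seen. Mir34a, a p53 target, was at 7.47, 7.62 and 7.42 with TGFβ1, 6.94, 6.86 and 6.91 with SB, and 7.04, 7.16 and 7.10 with DMSO, a difference of 0.60 ± 0.07 (standard error, adjusted p = 1.7e-06). The groups of TGFβ1 and SB did not overlap. Mir15a had -0.95, Mir218-1 -0.76, Mir181b-2 0.63, Mir369 0.59 and Mir382 0.63. For Mir181b-2 the TGFβ1 step was -0.03 and the SB step -0.66. The mature products of the 5-prime arm follow (RefSeq, GRCm38.p6), with the seed, bases 2 to 8, in capitals. No seed is shared among them.
mmu-miR-34a-5p, chr4:150068473-150068494, plus strand: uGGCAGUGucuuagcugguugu
mmu-miR-181b-5p, chr2:38853845-38853868, plus strand: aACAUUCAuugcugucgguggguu
mmu-miR-369-5p, chr12:109743431-109743452, plus strand: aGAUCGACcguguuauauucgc
mmu-miR-382-5p, chr12:109733781-109733802, plus strand: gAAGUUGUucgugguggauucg
mmu-miR-15a-5p, chr14:61632075-61632096, minus strand: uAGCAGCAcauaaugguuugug
mmu-miR-218-5p, chr5:48223966-48223986, plus strand: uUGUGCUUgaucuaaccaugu

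The distance between TGFβ1 and SB differed for many genes between MEFs with and without the factors. In MEFs without the factors, at the same doses, 1081 genes were higher with TGFβ1 than SB (5.42%) and 1389 lower (6.97%). Of the 617 genes higher with the factors, 266 (43.1%) were called in the same direction without them and 21 in the other, and of the 851 lower genes 589 (69.2%) and 15. The difference itself, with factors minus without, passed at 1.5-fold for 1051 genes upward (5.27%) and 765 downward (3.84%), 9.11% of all genes in sum. Among the 617 it passed for 249 with the larger increase in the presence of the factors and 88 with the smaller or opposite one, and among the 851 for 180 and 175. Car3, the carbonic anhydrase III of fat and muscle, was at 6.58, 6.59 and 6.76 with TGFβ1 and 7.12, 6.68 and 7.30 with SB in the presence of the factors, against 6.44, 6.60 and 6.46 with TGFβ1 and 12.79, 12.86 and 12.83 with SB without them. The SB cultures without factors were far above all others, and the change of the difference was 5.94 ± 0.15 (standard error, adjusted p = 1.02e-14). Cd36, Nid2, Dgat2 and Ndst4 had changes of 4.52, 4.08, 4.07 and 4.06. In the other direction Mmp3, the protease stromelysin, was at 9.45, 9.43 and 9.76 with TGFβ1 and 11.03, 10.87 and 11.08 with SB in the presence of the factors, against 10.83, 11.10 and 11.13 with TGFβ1 and 8.80, 8.44 and 8.80 with SB without them. TGFβ1 was thus the lower treatment with the factors and the higher one without, a change of -3.79 ± 0.16 (standard error, adjusted p = 8.28e-12). Fgl2, Mcpt8, Csn3 and Cnn1 had changes of -3.65, -3.36, -3.28 and -3.04.

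Most of the cardiac genes graded downward had a larger decrease with the factors than without. The change of the difference passed at 1.5-fold in that direction for 8 of the 11 in the 3 cardiac lists. It passed in the other direction for 1. Over all genes the shares were 3.84% and 5.27%, and among the 851 genes called lower they were 21.2% and 20.6%. The grade and the change both use the cultures with factors, so the 8 are a description. Pln was at 6.95, 7.29 and 6.99 with TGFβ1 and 9.05, 9.36 and 9.19 with SB in the presence of the factors, against 6.69, 6.65 and 6.57 with TGFβ1 and 6.45, 6.86 and 6.70 with SB without them. Without the factors the groups overlapped, and the change of the difference was -2.09 ± 0.14 (standard error, adjusted p = 1.71e-09). All these Pln values without factors lay below the medians of the MEF arrays, 7.83 to 7.91. Whether a gene so dim could still show a decrease with TGFβ1 was not tested. Actc1, Tnni3, Myl7 and Myocd had changes of -2.76, -1.48, -1.56 and -1.27, and their differences without factors were 0.94, 0.03, 0.35 and -0.12. Hcn4, Ppargc1a and Ryr2 had changes of -1.36, -0.94 and -0.91. For Tgfbr3 and Bmp2 the change of -0.57 and 0.16 did not pass both thresholds. Kcnd2, a potassium channel gene, ran the other way, with -0.55 with the factors and -1.95 without. The mitosis list had a median difference of -1.10 with the factors and -0.67 without, and the interferon list -1.25 and -1.81.

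**Figure D5:**
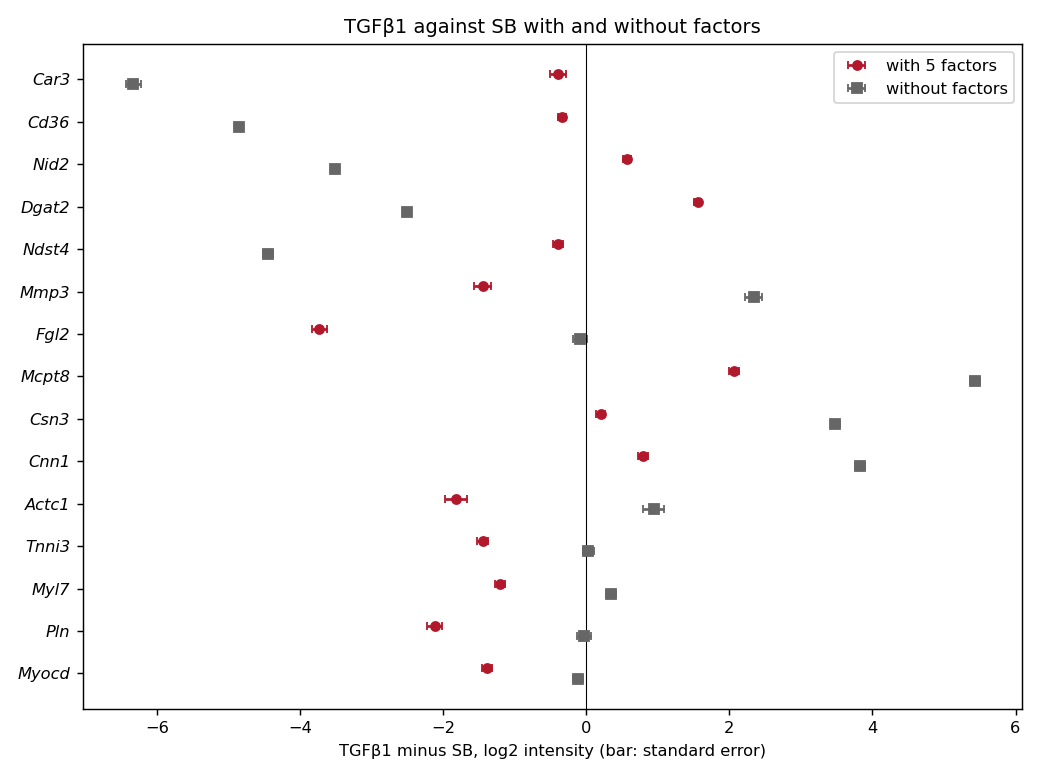
Points give TGFβ1 minus SB on the horizontal axis in log2 intensity with the standard error of the fit as a bar, for 15 genes in MEFs with the 5 factors (circles) and without factors (squares), 3 cultures a group. The upper genes, Car3 to Cnn1, had the 5 largest changes in each direction. The 5 cardiac genes at the bottom, chosen by name, lie between -2.12 and -1.21 with the factors and between -0.12 and 0.94 without.

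Adult cardiac fibroblasts with the same factors had 2 ng/mL TGFβ1 but 5 µM SB, so the doses differ and the values are set side by side only. There TGFβ1 minus SB was called at a difference of 25% or more for 908 genes upward (4.55%) and 659 downward (3.31%), and without SB replicate 3 for 1426 and 1506. The sign was the same as in MEFs for 540 of the 617 higher and 702 of the 851 lower genes, beside 63.2% of all genes. At 25% or more 285 (46.2%) of the higher and 240 (28.2%) of the lower genes were called in the same direction there, and 412 and 511 without SB replicate 3. Serpinb1a had 2.47 in cardiac fibroblasts and 2.63 in MEFs, and Ccl17 had 3.83 and 2.31. Tgfbr3 had -1.91 and -1.98, and Mki67 -0.76 and -1.70. Eln ran in opposite directions, with 4.18 in cardiac fibroblasts and -1.58 in MEFs.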

How the data were processed

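RNA of 27 cultures, 9 of them MEFs with the 5 factors, was read on Affymetrix Mouse Gene 1.0 ST arrays. The authors deposited log2 intensity per probe set, made with Microarray Suite 5.0 (MAS5 in the labels) and PartekGS per the study's methods. The normalization step and the version are not given in the sources used here. The values were used as deposited. Of 35556 probe sets, 21789 had 1 gene symbol in the platform annotation, 1621 several and 12146 none. Only the first were named, and each gene kept its probe set with the highest mean, which left 19938 genes.

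All 18 MEF arrays were fitted together in limma 3.58.1 (R 4.3.3) with 6 group means and 12 residual degrees of freedom, without replicate numbers as a block. The contrasts were TGFβ1 minus SB, TGFβ1 minus DMSO, SB minus DMSO, the midpoint of both treatments minus DMSO, and with minus without factors. P-values were adjusted by Benjamini-Hochberg over all 19938 genes. The cardiac fibroblast arrays had a fit of their own with 6 residual degrees of freedom. Arrays give no count of molecules, so the number of arrays limits the precision. Named genes were drawn from the 15 largest differences in each direction and from 8 genes of each class by the smaller of both steps. Others came from 5 interactions in each direction and from called members of gene lists. Not every gene under this rule is named. Genes named outside this rule, among them those with the SB step alone, uncalled list members and miRNAs, were chosen after their values were seen. The members, lists and tests were chosen with earlier results of these data known. The fit was tested on simulated data. Alternatives were fits of the arrays compared only, quantile normalization, median centring, limma's trend and robust options, other fold thresholds, a filter on dim genes, the mean of a gene's probe sets, the replicate block and leaving out each culture.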

Additional observations from a re-analysis of the deposited data

Results flagged for a closer look

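The difference between TGFβ1 and SB was itself different with and without the 5 factors for a sizeable set of genes (limma, with minus without factors, adjusted p under 0.05 and at least 1.5-fold). It was higher with the factors for 1051 genes and lower for 765. Each of the following passed that test. Car3 had a change of 5.94, Cd36 of 4.52, Nid2 of 4.08, Dgat2 of 4.07 and Ndst4 of 4.06 on the log2 scale. For Car3, Cd36 and Ndst4 the difference with factors was -0.39, -0.34 and -0.39, and without them it was -6.33, -4.86 and -4.45. In the other direction Mmp3 had a change of -3.79, Fgl2 of -3.65, Mcpt8 of -3.36, Csn3 of -3.28 and Cnn1 of -3.04. Among cardiac genes chosen by name, Actc1 had -2.76, Pln -2.09, Myl7 -1.56, Tnni3 -1.48 and Myocd -1.27. Of the other cardiac genes graded downward, Hcn4, Ppargc1a and Ryr2 passed downward with -1.36, -0.94 and -0.91, and Kcnd2 passed upward with 1.41. The cause of these differences was not tested, nor whether a gene dim without the factors, such as Pln, could still fall there.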

How the results depend on the processing

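Median centring, limma's trend and robust options, the mean of a gene's probe sets and dropping dim genes kept every count within 1.5 times of its value. Median centring gave 708 higher and 769 lower genes for TGFβ1 against SB and 463 and 288 graded genes. At a fold of at least 2, 205 genes were higher and 396 lower with TGFβ1 than SB, and with no fold threshold 4391 and 3280. Graded genes numbered 95 (TGFβ1 above DMSO above SB) and 138 (SB above DMSO above TGFβ1) with each step at 25% or more and 18 and 46 at 1.5-fold. Same-way genes numbered 15 above and 77 below DMSO at 25% and 1 and 23 at 1.5-fold. The genes above DMSO in both treatments numbered 81 in a fit of the 9 arrays only and 189 after quantile normalization. With no fold threshold the interaction passed for 3309 genes upward and 3514 downward.

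Leaving out 1 culture at a time gave 564 to 671 higher and 814 to 872 lower genes for TGFβ1 against SB, 226 to 354 and 235 to 341 graded genes, 59 to 198 same-way genes above DMSO and 143 to 347 below it, 1621 to 2542 and 1276 to 2026 genes with the midpoint above and below DMSO, and 1020 to 1100 and 711 to 813 interactions. The upward grades were 226 without DMSO replicate 2 and also without DMSO replicate 3. The same-way genes above DMSO were 59, 61 and 198 without SB replicates 1, 2 and 3, and 76 and 65 without DMSO replicates 2 and 3. Those below DMSO were 347 without DMSO replicate 1 and 143 without DMSO replicate 2. In cardiac fibroblasts the ranges were 694 to 1426 higher and 397 to 1506 lower, with 397 and 410 lower genes without TGFβ1 replicates 2 and 3.

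With the replicate number as a block shared by the 18 MEF arrays, TGFβ1 against SB gave 617 and 851 genes, the same 1468 calls. There were 316 and 315 graded and 108 and 216 same-way genes, and the block moved no count by over 1.5 times. A shared block cannot take up pairing confined to the 9 HNGMT arrays, and no block was fitted to those alone. Arrays with the same number correlated between -0.019 and 0.585 (median 0.255) in the 9 pairs of HNGMT arrays, and 8 of 9 arrays correlated best with their own number, a hint of pairing from the data and not from the labels. Over the 18 MEF arrays the median was -0.019 for the same and 0.012 for different numbers. Since same-number pairs over the 18 arrays ran down to -0.454 and the labels tie no number to a litter or day, the numbers were not taken to pair cultures. For 104 values of single genes (the largest differences, the classes and the interactions), all 1732 alternatives kept direction and side of the threshold. Of 267 called members of the gene lists, 16 lost the call without some 1 culture, among them Nebl, Myh6, Mybph, Des, Col11a1, Atf3, Tgfb1, Sfrp1 and Itgbl1, between 1 and 9 at a time. The steps share the DMSO cultures, so the graded and same-way counts depend on those 3 arrays more than the TGFβ1 against SB counts do. Vim and Tnnt2 lay near the highest values on the arrays, and whether their signal could still rise was not tested.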

Other observations

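Of 30 genes of the ATF4 and oxidative stress response, 4 were called higher with TGFβ1 than SB and 1 lower, beside 3.09% and 4.27% of all genes. At any fold 18 were higher and 5 lower, beside 22.0% and 16.5% of all genes. Without SB replicate 3 the genes called higher were 2, and without TGFβ1 replicate 2 or 3 they were 3. Nupr1, a stress-induced chromatin protein, had 1.23 ± 0.04 (standard error, adjusted p = 4.7e-14), Atf3 had 0.66 and Chac1, which degrades glutathione, 0.68. Nqo1, a quinone reductase under the factor Nrf2, was the 1 lower gene, with -1.26 ± 0.07 (standard error, adjusted p = 1.01e-10).

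Of 25 endothelial markers, 4 were lower (Ramp2 with -1.27, Erg with -1.13, Tek with -0.93 and Adgrf5 with -0.87) and Flt4, the receptor of lymphatic growth factors, was higher with 1.38. Of 24 leukocyte and mast cell markers, Csf1r with 1.06 and Mcpt4 with 1.62 were higher, which is 8.3% beside 7.36% of all genes, and the list's summed intensity ran from 12.03 to 12.15 with TGFβ1, 11.77 to 11.81 with SB and 11.73 to 11.81 with DMSO. Of 17 neural and glial genes, Tubb3 with 1.18 and Nes with 1.06 were higher and Map2 with -0.88 was lower. Of 23 cartilage and bone genes, 5 were below DMSO in both treatments, beside 1.15% of all genes. Acan, the large cartilage proteoglycan, was higher with TGFβ1 (1.57). Sox9, the master factor of cartilage, Comp and Phex were lower (-0.84, -1.81 and -1.39).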
